A study of Bos taurus with 24 samples.

Results

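The nuclear-encoded subunits of the mitochondrial respiratory chain and ATP synthase were examined in RNA of bovine granulosa cells. Members were the genes whose symbol has the form of an NDUFA, NDUFB, NDUFC, NDUFS or NDUFV subunit (complex I), a UQCR subunit (complex III), a cytochrome c oxidase subunit named COX4 to COX8 (complex IV) or an ATP5F, ATP5M, ATP5P or ATP5I subunit (ATP synthase, complex V). In the RefSeq annotation 82 symbols fit this form, and 78 of them could be matched by position to genes of the deposited table of 27607 genes: 36 of complex I, 8 of complex III, 17 of complex IV and 17 of complex V. Complexes were assigned by symbol, so NDUFA4, known to belong to complex IV, is in all sums and counts of complex I. NDUFV1, COX6A1, COX7B2 and ATP5MJ could not be matched and are not analysed here. The matches of COX6A2, COX7ALP1 and COX8B were the weakest by position, so these names are the least certain.

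The 24 libraries from Bos taurus fall into 5 groups by follicle stage and cell position. Secondary_GC are granulosa cells of secondary follicles (n = 4), early_CC and early_MGC are cumulus cells and mural granulosa cells of early antral follicles (n = 5 each), and late_CC and late_MGC are the same cell types of late antral follicles (n = 5 each). Granulosa cells are the somatic cells of the follicle, of which cumulus cells surround the oocyte and mural cells line the wall. The study asked which of these cells can rebuild transzonal projections, the fine processes that reach the oocyte, and whether expression differs between those stages. No treatment or genotype is labelled, the age of the animals is not given, and cDNA was made with a kit for very small RNA inputs and fragmented by a transposase. The labels do not say whether libraries of a group came from separate animals, so all p-values measure only the spread between these samples.

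Complexes I to IV pass electrons from NADH and succinate to oxygen, complexes I, III and IV pump protons out of the mitochondrial matrix, and complex V lets the protons back to make ATP. Most subunits are encoded in the nucleus, translated in the cytosol and imported, while a small core set is encoded in mitochondrial DNA. Complex I is built from catalytic core subunits and many accessory subunits. Complex IV has subunits that exist as isoforms for muscle, lung or testis beside the widely expressed forms. In the follicle, the enclosed oocyte depends on its granulosa cells for metabolites, which are passed through gap junctions.

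The members were mostly abundant transcripts of short genes. Levels are given as CPM (counts divided by a library's total and multiplied by 1000000) for comparisons of libraries and as CPM per kilobase of exon (RPKM) for comparisons of genes. Of the 78, 70 had a mean of at least 100 CPM over the 24 libraries, and the median of the members' means was 427.6 CPM against 12.2 CPM for the 14298 genes tested. Their exons summed to a median of 1090.0 bases, from 252 for COX7ALP1 to 3338 for NDUFS1, against 2342 for the genes tested, and 72 members were under 2000 bases, as were 41.0% of the genes tested. They lie on 24 chromosomes, with at most 10 on a chromosome (chromosome 7). Of the 78, 14 share exon bases with another gene, 13 of them on the opposite strand, among them COX4I1 with EMC8, ATP5PF with GABPA, COX8B with PSMD13 and NDUFB11 with RBM10. Reads were counted without regard to strand, so strand does not tell which gene a read on shared bases came from.

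Within complex I, mean RPKM over the 24 libraries was lowest for NDUFS1, the largest iron-sulphur subunit (25.8), and NDUFV3, an accessory flavoprotein subunit (40.9). It was highest for the small membrane-arm subunits NDUFA1 (1781) and NDUFB1 (1249.6). In complex III the core proteins UQCRC2 (43.8) and UQCRC1 (74.4) were lowest, and the small subunits UQCR11 (2702) and UQCRQ (2106) were highest. In complex IV, COX5B (1435) and COX8A (1052) were highest, and among members with any count the tissue isoforms COX8C (0.0254) and COX8B (0.744) were lowest. In complex V, mean RPKM ran from 231.6 for the stator subunit ATP5PB and 238.9 for the rotor-stalk subunit ATP5F1D to 1725 for ATP5MK, a small membrane subunit, and 2449 for ATP5IF1, the protein that inhibits ATP hydrolysis by the enzyme. Apart from 5 members with a mean under 10 RPKM, every member was at 25.8 RPKM or more. COX6A2, the muscle isoform of COX6A, had no count in any library, and COX8C, a testis isoform, had 8 counts, all in early_CC libraries 2 and 5; these 2 were not tested. The other 76 were.

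Depth ran from 8379801 to 31762400 counts per library. The labelled cell type was checked with 10 granulosa markers, all detected, whose summed level was 2823 to 32786 CPM in all libraries except late_MGC 3, where it was 335.3 CPM. That library also had the highest sum of 9 theca and stroma markers, 2109 CPM against at most 760.8 elsewhere. In late_CC 3 the granulosa sum was 5554 CPM, the lowest of its group, and in early_MGC 4 the mitochondrial genome took 36.5% of counts, the highest of all libraries. Counts of called members are therefore also given without these 3 libraries. Of 11 oocyte markers 3 were at 0 everywhere and the sum was at most 3.88 CPM, and 8 endothelial markers summed to at most 42.8 CPM. Blood cell markers, 6 with 1 at 0, summed to 2.01 to 72.2 CPM in late_CC, most of it HBA, and to at most 9.79 CPM elsewhere.

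Summed over each complex, the members had their lowest mean in late_CC and their highest in late_MGC. Together the members took 2.84, 2.27, 1.80, 1.59 and 1.94 percent of counts in late_CC libraries 1 to 5 and 4.68, 5.26, 4.87, 4.72 and 4.70 percent in those of early_CC. The corresponding shares were 6.36, 4.50, 4.98, 5.88 and 6.02 percent in late_MGC, 4.92, 4.18, 4.55, 3.23 and 3.88 percent in early_MGC and 3.90, 3.31, 3.74 and 3.81 percent in secondary_GC. Every late_CC library was thus below every library of the other groups, while late_MGC 2 was below all and late_MGC 3 within the range of the early_CC libraries. In bulk RNA a lower level cannot be told apart from a smaller share of cells of a type, or from less of the RNA per cell.

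**Figure D1:**
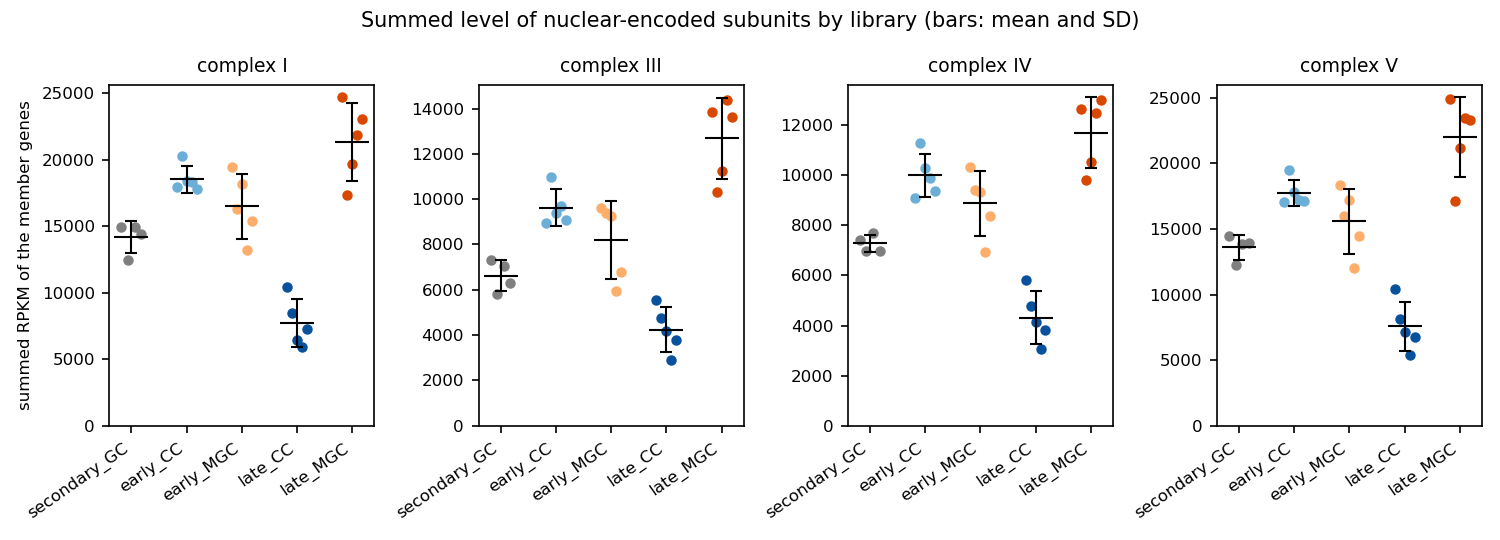
Summed RPKM of the members of complexes I, III, IV and V (y axes) in each of the 24 libraries (points) of the 5 groups (x axis), with the mean and SD of each group. The 5 late_CC libraries lie below all other libraries in each complex, and late_MGC has the highest mean in each.

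The order of the group means was the same in each of the 4 complexes, but relative to nuclear counts only early_CC lay below early_MGC in all 4, with log2 ratios of -0.077, -0.012, -0.072 and -0.057 in complexes I, III, IV and V. For complex I the summed level was 7693 ± 1804 RPKM (SD, n = 5) in late_CC, 14193 ± 1207 (n = 4) in secondary_GC, 16499 ± 2433 in early_MGC, 18540.4 ± 1006 in early_CC and 21336 ± 2901 in late_MGC. The neighbours secondary_GC and early_MGC, early_MGC and early_CC, and early_CC and late_MGC differed by less than the larger SD of each pair. For complex III the means ran from 4226 ± 992.2 RPKM in late_CC to 12690.3 ± 1795 in late_MGC. For complex IV they ran from 4319 ± 1042 to 11706 ± 1424, and for complex V from 7575 ± 1874 to 22014 ± 3027. The sums are a description and were not tested.

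**Figure D2:**
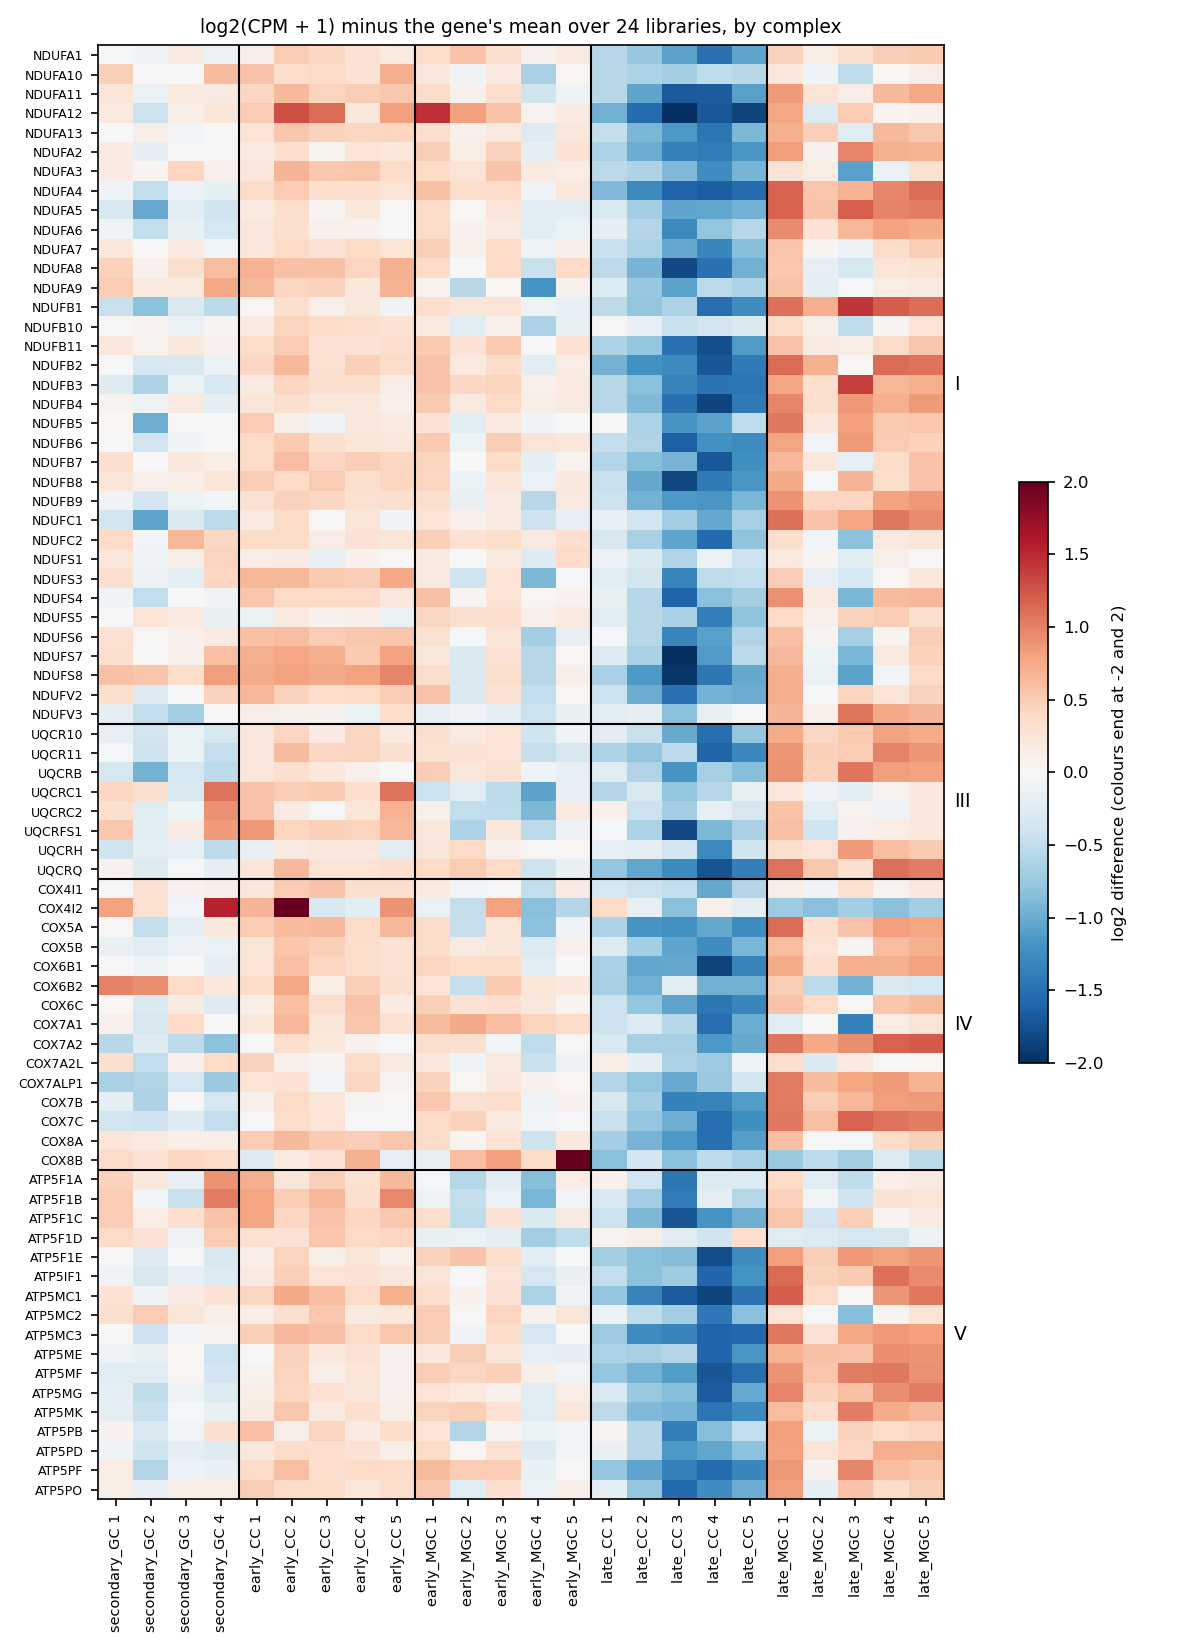
Level of tested members (rows, by complex) in each of the 24 libraries (columns, by group), as log2(CPM + 1) minus the gene's mean over all libraries, with colours ending at -2 and 2. Most rows are lowest in the late_CC columns and highest in the late_MGC columns.

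Each member was then tested with edgeR's quasi-likelihood test in a single fit of all genes and libraries, and those with an adjusted p (Benjamini-Hochberg) below 0.05 are spoken of as called, higher or lower. Of the 76 members tested, 75 differed among the 5 groups in any way, as did 65.1% of all genes tested. The count was 70 when each library was corrected for a trend with exon length (63.8% of all genes) and 74 without the 3 libraries (68.8%). Fold changes are log2 values with their standard error. Most genes named in a comparison were picked by their adjusted p in it. A lack of overlap between its groups is therefore no added support. The share of all genes without overlap is not given. The median over all genes tested lay between 0.00 and 0.05 in size in every comparison.

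Cumulus cells of late antral follicles had lower RNA levels of most members than those of early antral follicles. Of the 76 tested, 69 were lower and 0 higher in late_CC than in early_CC, where 45.2% of all genes tested were called, 22.5% higher and 22.7% lower. The counts were 33 of 36 in complex I, 7 of 8 in complex III, 13 of 15 in complex IV and 16 of 17 in complex V, and the members' median log2 fold change was -1.21. Without the 3 libraries named above 70 were lower and 0 higher (50.0% of all genes called). Among those not called were NDUFS1, NDUFV3, UQCRH, COX7A2L, COX4I2 and ATP5F1D.

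NDUFA4 (ENSBTAG00000011145, chromosome 4, 19041321 to 19049196 in ARS-UCD1.2), named as a complex I subunit but known to belong to complex IV, was at 556.4, 428.0, 339.3, 327.9 and 352.9 CPM in late_CC libraries 1 to 5 and at 1324, 1469, 1281, 1297 and 1242 CPM in early_CC. It was at 2336, 1519, 1678, 2019 and 2234 CPM in late_MGC, 1547, 1309, 1351, 981.5 and 1211 CPM in early_MGC and 979.6, 735.5, 949.7 and 913.2 CPM in secondary_GC. No late_CC library reached the lowest library of any other group. The log2 fold change of late_CC against early_CC was -1.71 ± 0.20 (edgeR's quasi-likelihood test, adjusted p = 5.1e-07). Among the other complex I members the smallest adjusted p values were those of NDUFA12 and NDUFB2. NDUFA12 (ENSBTAG00000014669, chromosome 5, 24684273 to 24711486), an accessory subunit of the matrix arm, was at 95.3, 63.3, 37.0, 57.1 and 51.0 CPM in late_CC and at 263.9, 455.2, 405.1, 215.8 and 330.6 CPM in early_CC, a log2 fold change of -2.44 ± 0.29 (edgeR, adjusted p = 8.3e-07). NDUFB2 (ENSBTAG00000021759, chromosome 4, 104013524 to 104019157), an accessory subunit of the membrane arm, was at 101.6, 83.9, 80.4, 59.3 and 73.1 CPM against 260.5, 307.1, 242.0, 273.9 and 252.6 CPM, a log2 fold change of -1.72 ± 0.22 (edgeR, adjusted p = 1.3e-06). For both genes the groups did not overlap, and NDUFA12 varied more within early_CC than NDUFB2 did.

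In complex III, UQCRQ (ENSBTAG00000009479, chromosome 7, 44447301 to 44448594), a small subunit near the ubiquinone site, was at 547.9, 456.3, 385.9, 283.6 and 363.4 CPM in late_CC and at 1109.8, 1480.2, 1137, 1129.8 and 1184 CPM in early_CC. The groups were apart, and the log2 fold change was -1.54 ± 0.23 (edgeR, adjusted p = 8.4e-06). UQCR11, the smallest subunit, fell by 1.30 on the log2 scale (edgeR, adjusted p = 5.9e-05) and UQCRC1, a core protein, by 1.09 (edgeR, adjusted p = 1.3e-04).

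In complex IV, COX8A (ENSBTAG00000052272, chromosome 29, 42308146 to 42310062), the widely expressed COX8 form, was at 396.4, 333.3, 285.9, 222.3 and 297.1 CPM in late_CC and at 901.7, 993.4, 917.4, 897.5 and 938.4 CPM in early_CC, a log2 fold change of -1.58 ± 0.19 (edgeR, adjusted p = 9.6e-07). COX5A, a subunit on the matrix side, was at 272.0, 183.3, 180.7, 206.1 and 175.8 CPM against 592.2, 647.1, 652.4, 545.6 and 655.3 CPM, a log2 fold change of -1.59 ± 0.22 (edgeR, adjusted p = 4.1e-06). COX6B1, a subunit on the intermembrane side, had a log2 fold change of -1.50 ± 0.20 (edgeR, adjusted p = 3.8e-06). In all 3 genes, picked by adjusted p in this comparison, each late_CC library was below each early_CC library.

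In complex V, ATP5MC3 (ENSBTAG00000002944, chromosome 2, 21688062 to 21691528) and ATP5MC1 (ENSBTAG00000018339, chromosome 19, 37618130 to 37621478) encode precursors of the membrane ring that turns as protons pass. ATP5MC3 was at 576.4, 397.2, 378.6, 312.8 and 320.3 CPM in late_CC and at 1323, 1489, 1428, 1249 and 1388 CPM in early_CC, a log2 fold change of -1.77 ± 0.21 (edgeR, adjusted p = 8.3e-07). ATP5MC1 was at 218.1, 148.8, 117.7, 104.8 and 134.3 CPM against 499.6, 633.6, 574.6, 491.4 and 612.8 CPM, a log2 fold change of -1.93 ± 0.25 (edgeR, adjusted p = 1.8e-06). ATP5PF, the coupling factor of the peripheral stalk, had a log2 fold change of -1.58 ± 0.21 (edgeR, adjusted p = 2.5e-06). The groups were apart in all 3, which were picked by adjusted p in this comparison. ATP5F1D, in contrast, overlapped: it was at 236.7, 243.9, 195.1, 172.0 and 284.7 CPM in late_CC and 279.6, 275.5, 333.3, 297.9 and 306.0 CPM in early_CC, a log2 fold change of -0.38 ± 0.17 (edgeR, adjusted p = 0.061).

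**Figure D3:**
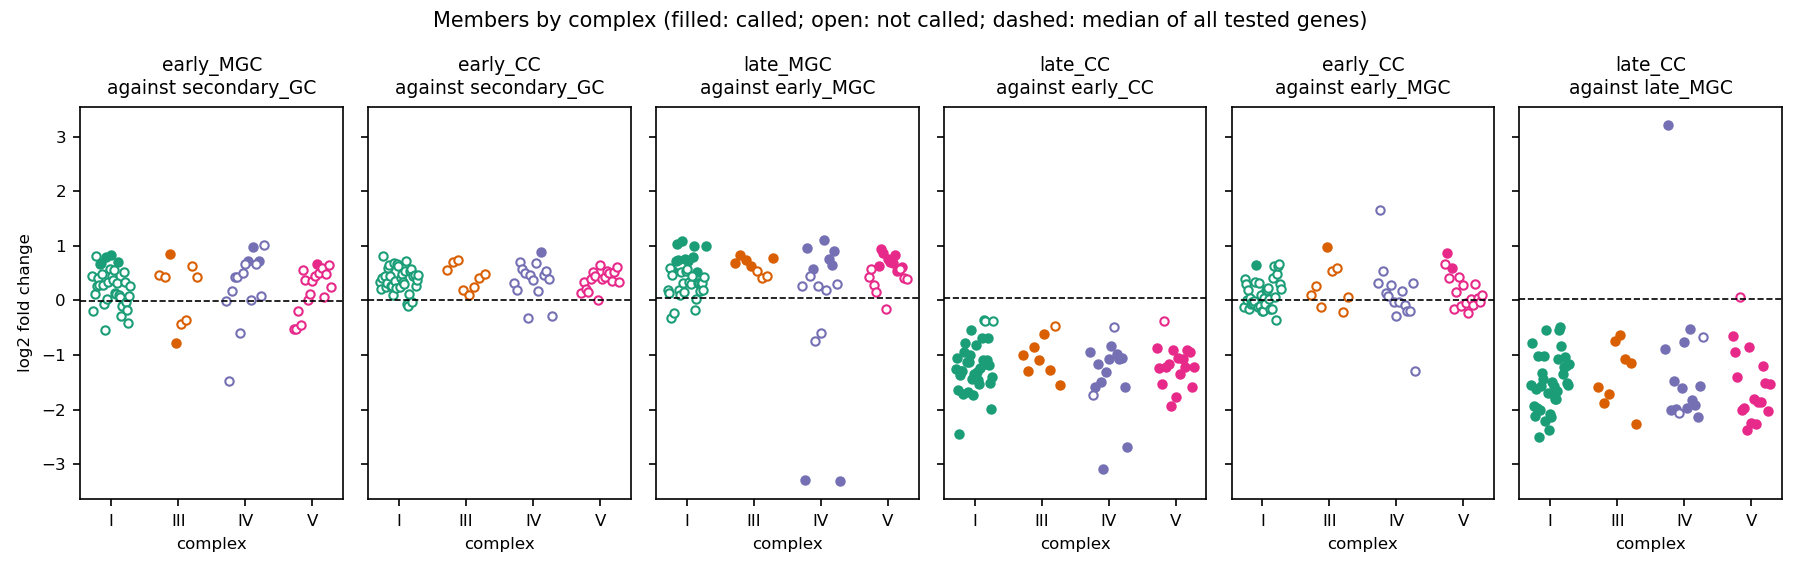
Log2 fold change of each tested member (points, by complex) in the 6 comparisons of groups, filled where the adjusted p was under 0.05, with the median of all genes tested as a dashed line. In both comparisons of late_CC nearly all members lie below that line, and in late_MGC against early_MGC most lie above it.

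Exon length moved with the difference between late_CC and early_CC. Over all genes tested, the Spearman correlation of exon length with log2 fold change was 0.285, a description across genes of the same libraries, and longer genes were the higher ones in late_CC. When the genes were split by exon length into 10 bins of equal size, the median of the genes other than members was -0.32 in the shortest bin (12 to 723 bases), -0.75 in the next (723 to 1236 bases), -0.54 in that of 1236 to 1603 bases and 0.67 in the longest. Of the members 64 lie in these 3 shortest bins, and their medians there were -1.24, -1.24 and -1.19, with 22 of 22, 24 of 27 and 14 of 15 members lower. Members were thus lower than other genes of like length in these bins by their medians, but other short genes were lower as well.

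Other genes under 2000 bases with a mean of at least 100 CPM numbered 851. Their median log2 fold change was -0.89 and 64.3% of them were lower in late_CC, beside -1.23 and 95.5% for the 67 members within the same bounds. After a length correction of each library (a smooth curve of log2 level on log2 exon length), the medians were -0.30 for those genes and -0.66 for these members. Of those genes 40.3% were then lower, beside 74.6% of these members. Over all genes the correlation was then -0.04, but it was 0.14 for genes of at least 10 CPM and 0.18 for genes other than members of at least 100 CPM. Of the 76 members tested 56 were lower and 0 higher after the correction, when 39.3% of all genes tested were called and 19.1% were lower, and the members' median was -0.66 in place of -1.21. The calls of 54 members stood in both fits. The 15 called only without the correction included COX4I1, COX7A1, COX7A2, COX7C, UQCRB, NDUFB10 and ATP5MC2, and NDUFS1 and NDUFV3, the complex I members of lowest RPKM, were called only with it.

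**Figure D4:**
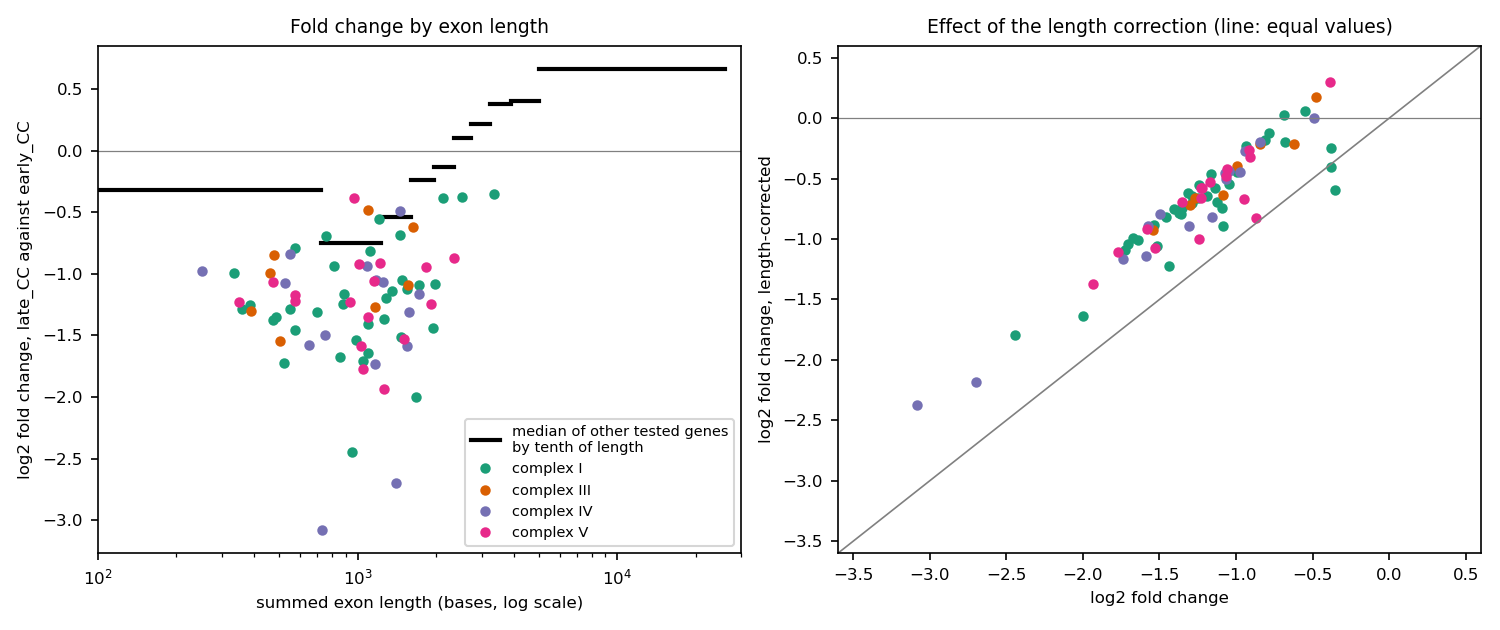
Left, log2 fold change of late_CC against early_CC for each tested member (points) by exon length in bases (log axis), with the medians of the other genes in 10 bins of exon length. Right, the same fold changes without (x axis) and with (y axis) the length correction. Most members lie below the medians of other genes, and most move towards 0 with the correction.

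The length trend differed between libraries. The fitted level of genes of 500 bases, relative to the mean trend of all libraries, was -0.19 in late_CC 1 and -0.90 in late_CC 4 on the log2 scale, the ends of the late_CC range, and -0.09 in late_MGC 3 to 0.49 in late_MGC 1 over the other groups. Within late_CC, the library with the strongest trend, late_CC 4, also had the lowest summed CPM of members (15912) and late_CC 1, with the weakest, the highest (28438). The order did not hold throughout: late_CC 5 had a stronger trend than late_CC 3 (-0.53 against -0.50) but a higher sum (19397 against 17991). How far the length trend accounts for the members' difference was not tested beyond this correction. The curve was fitted over all genes tested and takes out a trend with length whatever its source. Among genes other than members with at least 100 CPM a correlation of 0.18 stayed, so corrected values may still hold a part of the trend.

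At the late antral stage the members were also lower in cumulus than in mural cells. Of the 76 tested, 72 were lower and 1 was higher in late_CC than in late_MGC, where 39.7% of all genes tested were called, 18.9% higher and 20.8% lower. The median of the members was -1.57, and it was -1.55 in complex I (36 of 36 lower), -1.37 in complex III (8 of 8), -1.61 in complex IV (12 of 15) and -1.81 in complex V (16 of 17). The same counts, 72 and 1, were obtained without the 3 libraries (42.1% of all genes called). With the length correction (37.6% called) 65 were lower and 2 higher with a median of -1.08. Of the other genes under 2000 bases with a mean of at least 100 CPM, 64.6% were lower in late_CC than in late_MGC with a median of -0.87, beside 98.5% and -1.58 for the 67 members within these bounds. After the length correction the medians were -0.43 and -1.13, and 48.4% of those genes and 89.6% of these members were lower.

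NDUFA4 had the smallest adjusted p, with a log2 fold change of -2.50 ± 0.20 (edgeR, adjusted p = 1.1e-08). In complex I it was followed by NDUFB2, at 423.7, 321.1, 200.9, 425.8 and 418.8 CPM in late_MGC (-2.38 ± 0.22), and NDUFA2, a matrix-arm accessory subunit (-1.98 ± 0.19). In complex III, UQCRQ (-2.26 ± 0.23), UQCRB, which binds near ubiquinone (-1.71 ± 0.19), and UQCR11 (-1.87 ± 0.23) were lower. In complex IV these were COX7C (-2.14 ± 0.21), COX7A2 (-1.97 ± 0.20) and COX6B1 (-1.99 ± 0.21), small subunits around the catalytic core. In complex V they were the small membrane subunits ATP5MF (-2.26 ± 0.21) and ATP5MK (-1.86 ± 0.19) and the ring precursor ATP5MC3 (-2.25 ± 0.22). Each of these genes, picked by the smallest adjusted p of this comparison, was lower in every late_CC library than in every late_MGC library. ATP5F1D did not pass the test (0.06 ± 0.17), and with the length correction it was higher in late_CC (0.60). The member called higher was COX4I2, described with the isoforms.

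In mural cells more members rose than fell between the early and the late antral stage. Of the 76 tested 31 were higher and 2 lower in late_MGC than in early_MGC, where 19.1% of all genes tested were called, 9.76% higher and 9.30% lower. The members' median was 0.49, with 11 of 36 higher in complex I, 5 of 8 in complex III, 6 of 15 in complex IV and 9 of 17 in complex V. Without the 3 libraries 29 were higher and 2 lower (23.8% of all genes called), and with the length correction 39 and 3 (21.9%). Without early_MGC 5 alone 21 were called, and 21 in a fit of only these 2 groups. Of the other genes under 2000 bases with a mean of at least 100 CPM, 19.7% were higher in late_MGC with a median of 0.28, beside 41.8% and 0.53 for the 67 members within these bounds. With the length correction the shares were 27.4% and 52.2%.

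NDUFB1 (ENSBTAG00000015156, chromosome 21, 56801789 to 56808775), a small membrane-arm subunit, was at 788.7, 606.3, 984.4, 849.0 and 797.6 CPM in late_MGC libraries 1 to 5 and at 462.9, 432.6, 439.6, 340.3 and 328.1 CPM in early_MGC. Its late_MGC libraries lay above all libraries of all other groups, and the log2 fold change was 1.09 ± 0.21 (edgeR, adjusted p = 5.6e-04). COX7A2 (ENSBTAG00000005096, chromosome 9, 14833551 to 14838734), the widely expressed COX7A form, was at 954.4, 766.3, 863.5, 1033 and 1062 CPM in late_MGC and at 578.4, 565.0, 434.7, 319.5 and 460.0 CPM in early_MGC. It too was higher in every late_MGC library than in any other library, with a log2 fold change of 1.11 ± 0.19 (edgeR, adjusted p = 2.7e-04). In complex I NDUFV3 (0.99 ± 0.17; edgeR, adjusted p = 1.6e-04) and NDUFA5, a matrix-arm subunit (1.04 ± 0.20), were the other genes with the smallest adjusted p.

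Of complex III, UQCRB rose by 0.74, UQCR11 by 0.83 and UQCRQ by 0.78 on the log2 scale, the last not called in a fit of only these 2 groups (edgeR, adjusted p = 0.063). Of complex IV, COX7C (0.90 ± 0.20) and COX5A (0.95 ± 0.21) rose with COX7A2. Of complex V, ATP5IF1, the inhibitor (0.95 ± 0.22), ATP5MG, a small membrane subunit (0.83 ± 0.21), and ATP5MC3 (0.76 ± 0.21) had the smallest adjusted p. ATP5IF1 was at 2798, 1761, 1845, 2734 and 2475 CPM in late_MGC and at 1537, 1292, 1531, 998.2 and 1153 CPM in early_MGC, and these groups did not overlap. The 2 called lower were COX8B and COX4I2, at few counts.

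The change between stages differed by cell type. In the test of the interaction, (late_CC minus early_CC) minus (late_MGC minus early_MGC), 68 of the 76 members were lower and 0 higher, where 31.4% of all genes tested were called, 14.5% higher and 16.9% lower. The median was -1.72, close in complexes I (-1.68, 35 of 36), III (-1.67, 8 of 8), IV (-1.71, 10 of 15) and V (-1.81, 15 of 17). The count was 70 without the 3 libraries (34.9% of all genes called) and 63 with the length correction (27.4%), with a median of -1.17. Among other genes under 2000 bases and of at least 100 CPM the median was -1.09 and 59.2% were lower. For the 67 members within these bounds the values were -1.76 and 94.0%. With the length correction those genes had -0.51 and 40.8%, and these members -1.18 and 85.1%. The smallest adjusted p were those of NDUFA4 (-2.43 ± 0.27), NDUFB2 (-2.48 ± 0.30) and NDUFB9 (-2.03 ± 0.26) in complex I, UQCRQ (-2.32 ± 0.32), UQCR11 (-2.13 ± 0.32) and UQCRC1 (-1.72 ± 0.29) in complex III, COX5A (-2.54 ± 0.31), COX6B1 (-2.07 ± 0.29) and COX7A2 (-1.95 ± 0.27) in complex IV, and ATP5MC3 (-2.53 ± 0.30), ATP5MC1 (-2.80 ± 0.34) and ATP5MF (-2.04 ± 0.28) in complex V.

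Between secondary and early antral follicles fewer members were called. In early_MGC 10 of the 76 tested were higher and 1 lower than in secondary_GC, where 9.10% of all genes tested were called, 5.01% higher and 4.08% lower, and the members' median was 0.34. Scaling by total counts in place of TMM changed the split to 4 higher and 2 lower, when the median of all genes stood at -0.14, and with no filter on low counts 6 were called. Without the 3 libraries 14 were higher and 1 lower (13.6% of all genes called), and with the length correction 16 and 1 (9.53%). Leaving out secondary_GC 1, 2 or 4 left 4, 4 and 2 calls, and leaving out early_MGC 1, 2, 3 or 4 left 4, 5, 6 and 5.

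Among the genes called higher, UQCRB (ENSBTAG00000001521, chromosome 14, 67986645 to 67991355), a small subunit of complex III, was at 588.6, 488.2, 513.5, 390.2 and 372.2 CPM in early_MGC and at 326.8, 215.9, 325.9 and 290.4 CPM in secondary_GC, groups that did not overlap, with a log2 fold change of 0.85 ± 0.20 (edgeR, adjusted p = 0.010). NDUFB3 (0.83 ± 0.22), NDUFB1 (0.80 ± 0.22) and NDUFC1 (0.70 ± 0.22) of complex I, COX7A2 (0.71 ± 0.21) and COX7C (0.72 ± 0.21) of complex IV and ATP5MF (0.66 ± 0.21) of complex V were also higher. With total counts as scaling NDUFC1, COX7A2, COX7C and ATP5MF were not called, and with no filter on low counts NDUFC1, COX7C and ATP5MF were not. ATP5MF was also not called with RLE scaling or without the 3 libraries. UQCRC1 (ENSBTAG00000019096, chromosome 22, 51275073 to 51283826), the core protein, was the member called lower. It was at 80.1, 94.1, 75.7, 51.2 and 97.2 CPM in early_MGC and at 146.7, 136.2, 87.6 and 231.7 CPM in secondary_GC. The groups overlapped, since secondary_GC 3 was below early_MGC 2 and 5, and the log2 fold change was -0.78 ± 0.21 (edgeR, adjusted p = 0.023). UQCRC1 was not called in a fit of only these 2 groups (edgeR, adjusted p = 0.054). Nor was it called without secondary_GC 4 (-0.50; edgeR, adjusted p = 0.17) or without early_MGC 4 (-0.70; adjusted p = 0.060).

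Members were also grouped by their role in each complex, a grouping written after their values were seen. In early_MGC against secondary_GC the median was -0.14 for the 6 core subunits of complex I, -0.44 for the 2 core proteins and the Rieske protein of complex III and -0.45 for the 5 subunits of the catalytic head and central stalk of complex V. It was 0.34 for the 30 accessory subunits of complex I, 0.47 for the 5 small subunits of complex III and 0.55 for the 4 small membrane subunits of complex V. With the length correction these medians were -0.05, -0.26 and -0.37, and 0.36, 0.30 and 0.45, in the same order. Over the members tested the Spearman correlation of exon length and log2 fold change was -0.48 without the correction and -0.21 with it. Other genes under 2000 bases with a mean of at least 100 CPM had -0.37 and -0.17, so short abundant genes outside the members also shifted with length.

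In early_CC against secondary_GC 1 of the 76 was higher and 0 lower, where 1.99% of all genes tested were called, 0.944% higher and 1.05% lower, although the members' median was 0.41. The gene was COX7ALP1 (ENSBTAG00000006530, chromosome 5, 81860450 to 81860701), which RefSeq annotates as a pseudogene of the COX7A family, so that its reads may come in part from a near-identical parent gene. It was at 15.6, 15.6, 12.1, 17.2 and 13.4 CPM in early_CC and at 7.70, 8.0, 9.85 and 7.13 CPM in secondary_GC, and the log2 fold change was 0.88 ± 0.21 (edgeR, adjusted p = 0.021). It also had the smallest adjusted p of complex IV in early_MGC against secondary_GC (0.97 ± 0.21; edgeR, adjusted p = 0.0052). Without the 3 libraries 8 members were higher in early_CC (9.20% of all genes called), and with the length correction 11 (2.78%). A fit of only these 2 groups called 24 members higher and 964 genes in all, where the fit of all groups called 285 genes. DESeq2 and limma-voom called 4 members each, with 722 and 603 genes in all. Without secondary_GC 1, 2 or 4, or early_CC 1 or 4, the count was 0.

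Cumulus and mural cells of early antral follicles differed in few members. In early_CC 4 of the 76 tested were higher and 0 lower than in early_MGC, where 13.1% of all genes tested were called, 6.70% higher and 6.39% lower, and the members' median was 0.08. Without the 3 libraries 3 were higher (17.5% of all genes called), with the length correction 5 were higher and 1 lower (13.5%), in a fit of only these 2 groups 9, and with total counts as scaling 8. Without early_CC 1 or 5, or early_MGC 2, 4 or 5, the count was 2. UQCRC1 was at 162.1, 154.0, 156.7, 137.9 and 231.5 CPM in early_CC, above every early_MGC library, with a log2 fold change of 0.98 ± 0.20 (edgeR, adjusted p = 0.0028). ATP5F1B (ENSBTAG00000013315, chromosome 5, 56789495 to 56795018), the catalytic beta subunit of ATP synthase, was at 1186, 975.4, 1087, 867.0 and 1339 CPM in early_CC and at 640.3, 494.8, 629.3, 364.1 and 660.8 CPM in early_MGC, again without overlap, and its log2 fold change was 0.87 ± 0.25 (edgeR, adjusted p = 0.021). ATP5F1D (0.60 ± 0.17) and NDUFA9, a subunit of the matrix arm (0.65 ± 0.21), were the others. NDUFA9 was not called with RLE scaling, with no filter on low counts or without the 3 libraries, and ATP5F1B was not called in 4 of the fits that left out a library. By role, the medians were 0.52 for the core subunits of complex I, 0.60 for the core and Rieske proteins of complex III and 0.60 for the head and central stalk of complex V, beside 0.03 for the accessory subunits of complex I. With the length correction these were 0.35, 0.40 and 0.44, beside -0.03. The Spearman correlation of exon length and log2 fold change was 0.34 over the members tested and 0.03 with the correction. Other genes under 2000 bases with a mean of at least 100 CPM had 0.27 and 0.11.

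The proportion of the COX7A isoforms was different in late_MGC. COX7A1 (ENSBTAG00000014878, chromosome 18, 46806391 to 46808127), known as the heart and muscle form, was at 338.6, 248.3, 412.8 and 312.1 CPM in secondary_GC, 365.5, 496.5, 371.8, 464.2 and 386.8 CPM in early_CC and 489.2, 531.7, 483.1, 426.9 and 408.5 CPM in early_MGC. It was at 234.7, 259.7, 211.2, 108.1 and 157.7 CPM in late_CC and 268.2, 311.6, 122.1, 347.4 and 381.7 CPM in late_MGC. COX7A1 was thus lowest in the late antral groups, whose libraries overlapped. Of the summed RPKM of both genes, COX7A1 made up 22.7, 29.8, 12.8, 25.9 and 27.2 percent in late_MGC, while the mean share was 51.3 ± 4.66 percent (SD, n = 5) in early_MGC, 46.5 ± 2.85 in early_CC, 42.0 ± 4.77 in late_CC and 51.9 ± 7.66 (n = 4) in secondary_GC. All 5 late_MGC libraries lay below the lowest library of any other group, which was at 35.5 percent, and late_MGC 3, the library with few granulosa markers, had the lowest share.

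COX7A1 had log2 fold changes of -1.07 ± 0.27 in late_CC against early_CC (edgeR, adjusted p = 0.0019) and -0.76 ± 0.26 in late_CC against late_MGC (edgeR, adjusted p = 0.024), and neither call stood with the length correction. The second was also not called in a fit of only these 2 groups (adjusted p = 0.11) or with total counts (adjusted p = 0.065). In late_MGC against early_MGC it was -0.60 ± 0.26 (edgeR, adjusted p = 0.12), called with that correction (-0.65) and with total counts (-0.71), although the groups did not overlap. In the comparisons with secondary_GC it was 0.66 in early_MGC and 0.37 in early_CC, in early_CC against early_MGC -0.29 and in the interaction -0.48, none called. A fit of only early_MGC and secondary_GC called COX7A1 (0.67; edgeR, adjusted p = 0.049). COX7A2 had -0.84 ± 0.19 in late_CC against early_CC (edgeR, adjusted p = 9.9e-04), and with the length correction -0.20, not called (adjusted p = 0.29). It had 0.69 in early_CC against secondary_GC and -0.02 in early_CC against early_MGC, neither called, although DESeq2, limma-voom and 3 other settings called the first. Markers of skeletal and cardiac muscle were 6 matched with 1 at 0. Their sum, mostly ACTA1, was 56.9 to 205.2 CPM in early_CC, 91.6 to 293.8 in late_CC and 28.6 to 74.9 in secondary_GC. It was 3.58 to 16.9 CPM in early_MGC and at most 2.76 in late_MGC. A muscle source of COX7A1 was not tested.

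**Figure D5:**
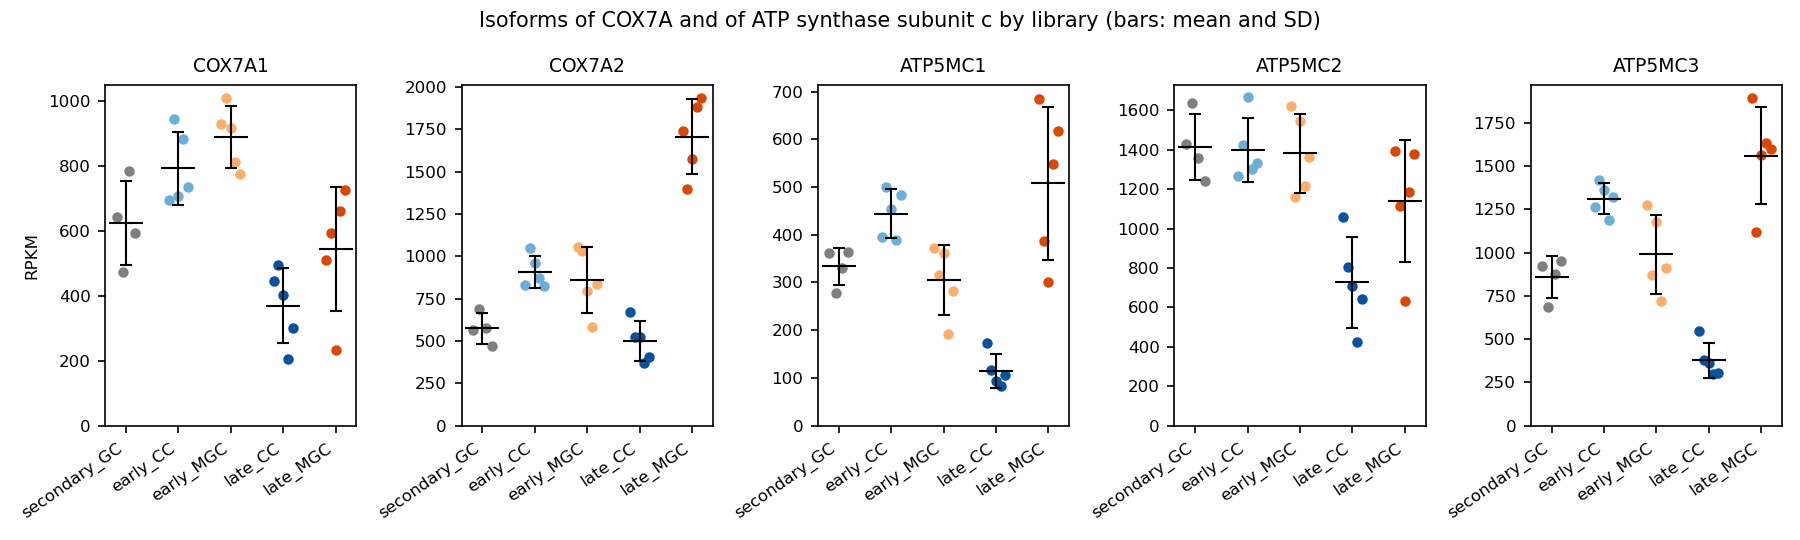
RPKM (y axis) of COX7A1, COX7A2 and the ring precursors ATP5MC1, ATP5MC2 and ATP5MC3 in each library (points) of the 5 groups (x axis). COX7A2 and ATP5MC3 have their highest mean in late_MGC, while COX7A1 does not.

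The 3 ATP5MC genes encode the same mature ring protein behind different import signals, and their proportions also differed between groups. Of their summed RPKM, ATP5MC2 made up 35.1, 42.5, 25.3, 35.2 and 38.3 percent in late_MGC, 49.6, 49.5, 50.1, 57.1 and 53.4 percent in early_MGC and 59.4, 61.9, 61.0, 52.7 and 61.0 percent in late_CC. The late_MGC libraries were below those of early_MGC and of late_CC. On average ATP5MC3 made up 49.2 percent in late_MGC, 36.8 in early_MGC, 41.6 in early_CC, 33.0 in secondary_GC and 31.4 in late_CC, and ATP5MC1 from 9.41 percent in late_CC to 15.5 in late_MGC.

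ATP5MC2 had log2 fold changes of -0.92 ± 0.24 in late_CC against early_CC (edgeR, adjusted p = 0.0033) and -0.86 ± 0.24 against late_MGC (edgeR, adjusted p = 0.0066). With the length correction these were -0.26 and -0.33 and neither was called (adjusted p = 0.29 and 0.18), and the second was not called in a fit of only these 2 groups (adjusted p = 0.060). In late_MGC against early_MGC it was -0.16 ± 0.24, while ATP5MC1 rose by 0.87 and ATP5MC3 by 0.76. Its interaction was -0.76 ± 0.34 and was not called (edgeR, adjusted p = 0.092), but it was called without the 3 libraries (-0.95; adjusted p = 0.026), without late_MGC 3 alone (-0.93; adjusted p = 0.018) and without late_CC 1 alone (-0.87; adjusted p = 0.040). The rise of ATP5MC1 in late_MGC was not called in a fit of only these 2 groups (adjusted p = 0.065). ATP5MC1 in late_CC against late_MGC had -2.37 ± 0.25. Before the late stage none of the 3 was called in the fit of all groups: in early_MGC against secondary_GC they were at 0.01, 0.12 and 0.35 for ATP5MC1, ATP5MC2 and ATP5MC3, in early_CC against secondary_GC at 0.45, 0.02 and 0.64, and in early_CC against early_MGC at 0.43, -0.10 and 0.29. A fit of only early_CC and secondary_GC called ATP5MC3 (0.60; edgeR, adjusted p = 0.012), as did the length correction (0.56; adjusted p = 0.049).

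COX4I1, the widely expressed COX4 form, had -0.94 ± 0.16 in late_CC against early_CC (edgeR, adjusted p = 6.2e-05), -0.88 ± 0.16 in late_CC against late_MGC and -1.21 ± 0.23 in the interaction, all called. With the length correction the first was -0.27 (adjusted p = 0.15) and the interaction -0.54 (adjusted p = 0.060), neither called. It had -0.01, 0.32, 0.27 and 0.32 against secondary_GC in mural and in cumulus cells, between the mural stages and between the early antral groups, none called. COX4I2, the lung form, was scarce: it had 190, 265, 53, 58 and 6 counts over the libraries of secondary_GC, early_CC, early_MGC, late_CC and late_MGC. It was at 0.0695, 0, 0.107, 0 and 0.0949 CPM in late_MGC and 1.32, 0.590, 0, 0.906 and 0.564 CPM in late_CC. It was called lower in late_MGC than in early_MGC (-3.30 ± 1.08; edgeR, adjusted p = 0.033) and higher in late_CC than in late_MGC (3.22 ± 1.07; edgeR, adjusted p = 0.019), although libraries of both groups were at 0. With limma-voom neither was called (adjusted p = 0.26 and 0.14). Without early_MGC 3 the first was -2.06 (edgeR, adjusted p = 0.19), and without late_MGC 1, 2 or 4 its adjusted p was 0.054, 0.064 and 0.074. Its other fold changes, -1.47 and 0.19 against secondary_GC, -1.74 in late_CC against early_CC, 1.66 in early_CC against early_MGC and 1.56 in the interaction, were not called.

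COX8B, the muscle form of COX8, had 99, 124, 228, 14 and 21 counts over the same groups in the same order. It was lower in late_MGC than in early_MGC (-3.31 ± 0.75; edgeR, adjusted p = 0.0028) and in late_CC than in early_CC (-2.69 ± 0.75; edgeR, adjusted p = 0.0050). It was not called at 1.01 and -0.29 against secondary_GC, -1.30 in early_CC against early_MGC, -0.68 in late_CC against late_MGC and 0.62 in the interaction. COX6B2, the testis form, had 146, 197, 96, 14 and 77 counts, with 3 late_CC libraries at 0, and was lower in late_CC than in early_CC (-3.08 ± 0.93; edgeR, adjusted p = 0.0088). Elsewhere it had -0.60 and -0.32 against secondary_GC, -0.74 in late_MGC against early_MGC, 0.28 in early_CC against early_MGC, -2.07 in late_CC against late_MGC and -2.34 in the interaction, none called. The last pair depended on late_CC 3: without that library they were -3.63 (edgeR, adjusted p = 0.0063) and -3.90 (adjusted p = 0.019), and without the 3 libraries -3.96 (adjusted p = 0.00069) and -4.32 (adjusted p = 0.0032), all called. DESeq2 (adjusted p = 0.037) and the fit without late_MGC 3 (-2.40; adjusted p = 0.022) also called the difference from late_MGC.

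Of the remaining named forms, COX6B1, COX8A, NDUFA4 and ATP5IF1 were lower in late_CC in both comparisons and in the interaction, and COX7A2L in 1 of these 3 tests. COX6B1 was at 0.57 ± 0.20 in late_MGC against early_MGC (edgeR, adjusted p = 0.047), a call lost with RLE scaling, no filter, limma-voom, a fit of only these 2 groups, total counts, without the 3 libraries and in 6 fits that left out a library. It was at 0.42, 0.49 and 0.07 in early_MGC and early_CC against secondary_GC and early_CC against early_MGC, not called. A fit of only early_CC and secondary_GC called COX6B1 (0.45; edgeR, adjusted p = 0.044). COX8A was lower in late_CC than in late_MGC (-1.57 ± 0.19) and in the interaction (-1.88 ± 0.27), and was at 0.09, 0.40, 0.30 and 0.31 in the 4 other comparisons. COX7A2L, which takes part in supercomplex assembly, was at -0.52 ± 0.20 in late_CC against late_MGC (edgeR, adjusted p = 0.046) and -0.49 ± 0.20 in late_CC against early_CC (edgeR, adjusted p = 0.053). The first was not called with RLE scaling, total counts, a fit of only these 2 groups, the length correction (-0.23; adjusted p = 0.22), without the 3 libraries or in 7 fits that left out a library. The second was called with no filter, DESeq2, limma-voom, total counts and a fit of only these 2 groups. COX7A2L was not called in the others (0.00, 0.17, 0.19, 0.17 and -0.68 in the interaction). NDUFA4 rose in late_MGC (0.73 ± 0.19; edgeR, adjusted p = 0.0093) and in early_MGC against secondary_GC (0.66 ± 0.20; edgeR, adjusted p = 0.042), the second not called with no filter (adjusted p = 0.079) or total counts (adjusted p = 0.074), with 0.60 in early_CC against secondary_GC and -0.06 in early_CC against early_MGC, not called. A fit of only early_CC and secondary_GC called NDUFA4 (0.55; edgeR, adjusted p = 0.018), as did the length correction (0.51; adjusted p = 0.045). ATP5IF1 was lower in late_CC than in early_CC (-1.17 ± 0.22), than in late_MGC (-1.97 ± 0.22) and in the interaction (-2.12 ± 0.31), and was at 0.38, 0.52 and 0.15 in the comparisons before the late stage. It was called in a fit of only early_CC and secondary_GC (0.48; edgeR, adjusted p = 0.026).

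Genes that act with these subunits were taken from lists. Beside their counts stand the shares of all genes tested that were higher and lower, respectively 22.5% and 22.7% in late_CC against early_CC, 18.9% and 20.8% in late_CC against late_MGC, 9.76% and 9.30% in late_MGC against early_MGC, 6.70% and 6.39% in early_CC against early_MGC, 5.01% and 4.08% in early_MGC against secondary_GC, and 14.5% and 16.9% in the interaction. Of 8 respiratory chain genes that the symbol form does not cover (CYC1, CYCS, the 4 SDH genes, NDUFAB1 and NDUFA4L2), 7 were lower and 1 higher in late_CC than in early_CC, with CYC1, cytochrome c1, at -1.54 ± 0.25, SDHB of complex II at -1.40 ± 0.24 and NDUFAB1 at -1.36 ± 0.23. In late_CC against late_MGC the counts were again 7 and 1, with the electron carrier CYCS at -2.32 ± 0.26. In late_MGC against early_MGC CYCS was higher (1.45 ± 0.26), the call of this list there. In early_CC against early_MGC CYC1 (0.98 ± 0.25) and SDHB (0.91 ± 0.23) were among 3 higher. In the interaction 6 of 8 were lower.

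Of 50 matched assembly factors, which insert cofactors or build the complexes, 27 were lower and 1 higher in late_CC than in early_CC (22.7% and 22.5% of all genes), with the copper-site factor CMC2 at -2.43 ± 0.27, COX14 at -1.58 ± 0.19 and SURF1 at -1.31 ± 0.19. They were 31 lower and 2 higher in late_CC against late_MGC, and 28 lower in the interaction. In late_MGC against early_MGC 5 of the 50 were higher, a share near the 9.76% of all genes, and 1 was lower. With the length correction 21 were lower and 5 higher in late_CC than in early_CC. Before the late stage 5 were higher in early_CC than in early_MGC, with SCO2 at 1.19 ± 0.22, 2 were higher and 2 lower in early_MGC than in secondary_GC, with ECSIT at -2.22 ± 0.44, and SCO2 was higher in early_CC than in secondary_GC (0.90 ± 0.23). Of 20 genes of the outer membrane and protein import, 10 were lower and 1 higher in late_CC than in early_CC (22.7% and 22.5% of all genes), with the channel subunit TIMM17A at -3.51 ± 0.47 and TOMM6 at -1.24 ± 0.19, and 14 and 1 in late_CC than in late_MGC. In late_MGC 7 were higher than in early_MGC, with TIMM44 at 1.07 ± 0.20, and 14 were lower in the interaction. PHB2, a prohibitin of the inner membrane, was lower in early_MGC than in secondary_GC (-0.84 ± 0.20) and among 3 higher in early_CC than in early_MGC (1.03 ± 0.19).

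Of 12 matched genes of the tricarboxylic acid cycle, which feeds the chain, 6 were lower and 2 higher in late_CC than in early_CC (22.7% and 22.5% of all genes), with MDH2 at -1.54 ± 0.25 and SUCLG2 at 0.91 ± 0.15. In late_CC against late_MGC 5 were lower and 1 higher, in late_MGC against early_MGC 5 higher, with IDH3A at 1.39 ± 0.25, and in early_CC against early_MGC 6 higher, with MDH2 at 1.08 ± 0.25. In the interaction 8 were lower, and in early_MGC against secondary_GC 1 was higher and 1 lower. Of 19 matched regulators of mitochondrial transcription and biogenesis, 4 were lower and 3 higher in late_CC than in early_CC. This share was not far below the 45.2% called over all genes. Among the regulators were the RNA-binding SLIRP at -1.22 ± 0.20 and the elongation factor TEFM at -1.48 ± 0.41. In late_MGC 4 were higher than in early_MGC, with the RNA polymerase POLRMT at 1.50 ± 0.36, and 5 were lower in late_CC than in late_MGC and 4 in the interaction. TFAM, which packages mitochondrial DNA, was lower in early_CC than in early_MGC (-1.17 ± 0.20) and higher in early_MGC than in secondary_GC (1.13 ± 0.22).

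Of the 13 subunits encoded in mitochondrial DNA, those called in late_CC against early_CC were higher, the other direction from the nuclear members. In late_CC against early_CC 8 were higher and 0 lower with a median of 1.06, among them ATP8 (2.39 ± 0.55), ND1 (1.40 ± 0.37) and ND4L (1.69 ± 0.46), where the nuclear members had 69 lower. In the interaction 6 were higher and 0 lower. In early_CC against early_MGC 10 were lower, with ND5 at -2.10 ± 0.44, and in late_CC against late_MGC 2 were lower, COX2 (-1.21 ± 0.43) and COX1 (-1.02 ± 0.37). In late_MGC against early_MGC 0 of the 13 were called. The mitochondrial genome took 5.45 to 7.24 percent of counts in early_CC, 11.4 to 27.7 in late_CC, 12.5 to 36.5 in early_MGC, 10.3 to 21.5 in late_MGC and 5.15 to 19.3 in secondary_GC. When the sums of nuclear members were taken relative to nuclear counts only, the log2 ratio of early_CC to early_MGC for all members turned from 0.19 to -0.06.

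Across libraries, members of different complexes correlated nearly as much as members of the same complex. Over the 24 libraries the median Spearman correlation of CPM was 0.728 for 899 pairs of tested members within a complex and 0.712 for 1951 pairs of different complexes, a description that includes the differences between groups. Of the 76, 49 correlated with the median of the others above 0.8, with NDUFA4 (0.98), ATP5IF1 (0.98) and COX6B1 (0.97) the highest. Correlations among genes other than members are not given, so these values do not set the members apart. Of 8 members below 0.5, the lowest were COX4I2 (-0.21), ATP5F1D (0.03), COX8B (0.04), COX6B2 (0.24), ATP5F1A (0.40), UQCRC1 (0.45) and COX7A1 (0.46).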

How the data were processed

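RNA of 24 libraries was measured as read counts per gene. The counts were deposited by the authors and were made, per the file headers, with featureCounts 2.0.0 on the exons of the Ensembl annotation of ARS-UCD1.2, without options for strand, read pairs or multiple alignments. Other tools named in the submitters' processing notes, without their order, are fastp 0.20.0, HISAT2 2.1.0 and SAMtools 1.10. The deposited table also holds each gene's summed exon length in bases, used for RPKM and length trends. The number of columns of no sample that were not used was 1, the undetermined reads. Libraries of secondary_GC and late_MGC are numbered by column order.

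Symbols came from RefSeq on the next assembly, ARS-UCD2.0, where a pair of gene spans overlapped over 0.5 or more of their union and neither had a better partner: 20455 of 27607 genes received one, and 1632 did after a shift of 1000000 bases. The 78 members had a median overlap of 0.975, and 4 of their genes would have received another symbol after the shift. The lowest overlaps were those of COX6A2 (0.506), COX7ALP1 (0.571) and COX8B (0.574).

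Counts were tested with edgeR 4.0.16 (quasi-likelihood, robust, TMM scaling, filterByExpr) in R 4.3.3, in 1 fit of all libraries by group over 14298 genes. The threshold was an adjusted p (Benjamini-Hochberg) of 0.05, and the standard error is the fold change divided by the root of its F statistic. CPM values use total counts without TMM factors. The script was tested on simulated counts. No 2 libraries of a group were copies (chi-square per degree of freedom at least 17.4 in the 46 pairs). Figures were drawn with matplotlib 3.10.9. Intervals and limits at few counts cover counting error only.

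Alternatives were RLE scaling, no filter, DESeq2 1.42.0, limma-voom 3.58.1, only the groups compared, length-corrected offsets (loess, span 0.5), leaving out the 3 libraries that stand apart or each library in turn, and a replicate block. Scaling by total counts, sums over nuclear counts and the grouping by role were added after seeing the data. The members, lists and tests were chosen with earlier results of these data known. Named were, per comparison, complex and direction, the 3 called members with the smallest adjusted p; the 2 highest and 2 lowest of each complex in RPKM; 16 isoform and regulator genes in every comparison; members not tested; and up to 3 called genes per direction of each other list. Some genes that this rule or a list would name are not reported here. ATP5F1A and the members listed as not called or as changing with the length correction were named after their values were seen. List genes that could not be matched were NDUFAF1, TTC19, COX18, HIGD1A, PPARGC1A and OGDH, and of the markers ZP2, ACTA2, TYROBP, AIF1 and TTN.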

Additional observations from a re-analysis of the deposited data

Results flagged for a closer look

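In 3 of 95 groups of 4 or 5 libraries examined, a library stood far from the others of its group, where chance gives about 1 in 20. The summed level of complex I in early_CC 2 was 20282 RPKM, and the other early_CC libraries lay between 17766 and 18382. COX6B1 in late_MGC 2 was at 845.3 CPM, below the other late_MGC libraries at 1106 to 1178. COX8B in early_MGC 5 was at 6.80 CPM, above the others of its group at 0.617 to 2.16.

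The change from the early to the late antral stage differed between cumulus and mural cells by the interaction test for 68 members. Among the genes with values in every comparison, the interaction was a log2 value of -1.21 for COX4I1, -2.07 for COX6B1, -1.95 for COX7A2, -1.88 for COX8A, -2.43 for NDUFA4, -2.80 for ATP5MC1, -2.53 for ATP5MC3 and -2.12 for ATP5IF1 (edgeR's quasi-likelihood test, adjusted p under the threshold for each). Each of these 8 genes was called lower in late_CC than in early_CC, and COX6B1, COX7A2, NDUFA4, ATP5MC1, ATP5MC3 and ATP5IF1 were also called higher in late_MGC than in early_MGC. With the length correction COX4I1 (-0.27) and COX7A2 (-0.20) were not called in late_CC against early_CC, nor was the interaction of COX4I1 (-0.54). The late_MGC call of COX6B1 was lost with RLE scaling, no filter, limma-voom, a fit of only these 2 groups, total counts and without the 3 libraries, and that of ATP5MC1 in a fit of only these 2 groups.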

How the results depend on the processing

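Of 2803 values of 142 named gene results under the alternatives, 2600 kept their direction and side of the threshold, 119 lost the call, 33 gained it and 51 changed sign, 23 of these on leaving out a library. Members called in early_MGC against secondary_GC numbered 11, but 6 without the filter, 17 with the length correction and 6 with total counts. In early_CC against secondary_GC the 1 call became 4 with DESeq2, 4 with limma-voom, 24 in a fit of only the groups compared, 11 with the length correction and 8 without the 3 libraries. In late_MGC against early_MGC the fit of only the groups compared gave 21 in place of 33. In early_CC against early_MGC the 4 calls became 9 in that fit and 8 with total counts. The cause was not tested beyond what each alternative changes.

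Leaving out each library in turn gave 2 to 13 calls for early_MGC and 0 to 1 for early_CC against secondary_GC, 21 to 37 for late_MGC against early_MGC, 68 to 72 for late_CC against early_CC, 2 to 6 for early_CC against early_MGC, 67 to 74 for late_CC against late_MGC, 67 to 70 for the interaction and 71 to 75 for any difference. With nuclear counts only, the log2 ratio of summed levels of early_CC to early_MGC turned to -0.077 in complex I, -0.012 in complex III, -0.072 in complex IV, -0.057 in complex V and -0.059 over all members.

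Replicate numbers did not pair the libraries in general. Of 15 same-number pairs, correlations of the deviations ran from -0.147 to 0.242, and 4 were over 0.1. Their median was -0.0040, beside -0.0066 for pairs of different numbers. Libraries of number 1 were an exception, at 0.242 (early_CC with early_MGC), 0.218 (early_MGC with late_CC) and 0.203 (early_CC with late_CC). They were the 3 of 15 libraries that correlated best with their own number. Whether they share a source was not tested. With a replicate block in the 3 groups that carry numbers, 9 members were called in early_CC against early_MGC and 73 in late_CC against early_CC, against 6 and 73 in the same fit without the block.

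No fold change that changed sign was called in the reported fit. In early_MGC against secondary_GC, COX4I1 was at 0.0034 (only the groups compared), 0.081 (length correction) and 0.043 (without the 3 libraries), COX7A2L at -0.025 (RLE), -0.0053 (no filter), -0.025 (DESeq2) and -0.15 (total counts), ATP5MC1 at -0.016 (RLE), -0.016 (DESeq2), -0.014 (limma-voom) and -0.13 (total counts), and COX8A at -0.052 and ATP5MC2 at -0.036 (total counts). In early_CC against secondary_GC, COX4I2 was at -0.42 (limma-voom) and ATP5MC2 at -0.049 (RLE), -0.049 (DESeq2), -0.031 (only the groups compared), -0.090 (length correction) and -0.017 (total counts). ATP5MC2 in late_MGC against early_MGC was at 0.023 without the 3 libraries, and COX7A2L in late_CC against early_CC at 0.00079 with the length correction. In early_CC against early_MGC, COX6B1 was at -0.019 and COX7A2L at -0.057 (length correction), COX7A2 at 0.0017 (no filter) and 0.078 (total counts), and NDUFA4 at 0.047 and ATP5MC2 at 0.019 (total counts). COX7A1 in the interaction was at 0.20 with the length correction.

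Leaving out a library gave, in early_MGC against secondary_GC, -0.073 to 0.061 for COX4I1, -0.15 to 0.10 for COX7A2L and -0.077 to 0.10 for ATP5MC1. In early_CC against secondary_GC it gave -0.63 to 0.79 for COX4I2 and -0.062 to 0.10 for ATP5MC2, and in late_MGC against early_MGC -0.29 to 0.012 for ATP5MC2. In early_CC against early_MGC it gave -0.018 to 0.14 for COX6B1, -0.093 to 0.068 for COX7A2 and -0.13 to 0.017 for NDUFA4, and in the interaction -0.087 to 1.07 for COX8B. Depth limits COX4I2, COX8B, COX6B2 and COX8C, whose counts per group were few. Total counts without TMM moved the median of all genes to -0.14 in early_MGC against secondary_GC, 0.11 in early_CC against early_MGC, 0.22 in late_CC against late_MGC and 0.14 in the interaction.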
